A study of Mus musculus with 13 samples.

Results

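The 37 genes described here encode proteins of DNA replication and of mitosis, and their transcripts were measured in gamma delta intraepithelial lymphocytes sorted from the small intestine of mice whose genotype is given as WT. They were given by symbol, and each was found by its gene name among the 21084 genes of the deposited count table. Of the 37, 17 belong to replication and 20 to mitosis, and all 37 passed the filter on low counts. The study crossed an antibody with a cytokine. Mice received 200 µg of UC7-13D5, an antibody to the T cell receptor of these cells, or IgG of the Armenian hamster into the peritoneum, and then 1 µg of IFNa, a type I interferon, or PBS intravenously for 5 h. The treatment protocol gives both 48 and 24 h before cell isolation for the antibody, while the design text gives the 2 times as alternatives. The groups, named by antibody and injection, were IgG-PBS (3 libraries), IgG-IFNa (4), UC7-PBS (3) and UC7-IFNa (3). The titles call the 13 libraries biological replicates, but whether each came from 1 mouse or from pooled mice is not given in the sources used here.

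A cell that divides copies its DNA in S phase and separates the copies in mitosis. Cdc6 and Cdt1 load the Mcm2 to Mcm7 ring, a helicase, onto origins in G1, and Cdc45 and the GINS complex, of which Gins2 is a subunit, turn it into an active helicase. Pcna clamps the polymerase to DNA, while Tyms, Rrm1 and Rrm2 make deoxynucleotides. Ccne1, Ccne2 and the transcription factor E2f1 drive entry into S phase. Later, Cdk1 with cyclins A2, B1 and B2 drives mitosis, the Aurora and Polo kinases build the spindle, Bub1 and Bub1b hold the checkpoint, and Cdc20 and Ube2c work with the anaphase-promoting complex to end it. MCM proteins are abundant and long-lived, whereas most mitotic transcripts are made only in G2 and M. Gamma delta intraepithelial lymphocytes sit between the epithelial cells of the gut as a long-lived resident population. In a bulk sample, fewer dividing cells and less RNA per dividing cell cannot be told apart.

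The depth was 19867201 to 26895876 estimated counts a library, and the smallest rounded count of any member in any library was 28, for Bub1. Of 11 markers of gamma delta intraepithelial lymphocytes, Trdc and Trgc1 among them, all 11 stood at 1 CPM (a count scaled to library size) or more in every library. That bar lay far below their lowest level, 159 CPM for Trdc, and it does not measure the purity of the sort. Crypt epithelium, which also divides, was checked with 14 markers: 9 reached 1 CPM in every library, while the stem cell markers Lgr5 and Ascl2 were at 0 in 5 and 7 libraries. The summed crypt list was 423 to 654 CPM in IgG-PBS, 484 to 602 in IgG-IFNa, 584 to 760 in UC7-PBS and 530 to 600 in UC7-IFNa. Its largest parts were Cdh1 (median 338 CPM) and Epcam (135), while Olfm4 had a median of 5.08 and Axin2 of 3.72. The sum is therefore not a measure of dividing crypt cells. The list of 14 differentiated epithelium markers, 10 of them at 1 CPM or more in every library and none at 0, summed to 53.4 to 221 CPM in IgG-PBS, 303 to 589 in IgG-IFNa, 506 to 983 in UC7-PBS and 251 to 797 in UC7-IFNa, so IgG-PBS did not overlap IgG-IFNa or UC7-PBS. Of 8 alpha beta T cell markers, 6 reached 1 CPM in every library (median 210 CPM for Trac and 773 for Trbc2, against 185 for Trdc), and the list summed to 1516 to 2731 CPM. Of 10 B and plasma cell markers 6 did, with a median of 253 CPM for Ighm, and the sums were 692 to 826 CPM in IgG-PBS, 833 to 924 in IgG-IFNa, 710 to 737 in UC7-PBS and 804 to 1386 in UC7-IFNa. Of 10 myeloid markers 5 did, with S100a8 at 0 in 11 libraries, and the list summed to 167 to 432 CPM. The part of these cell types in the members' levels was not tested. The X-linked Xist stood at 258 CPM or more in the IgG-PBS libraries and at 1.08 CPM or less in all UC7 libraries, where 4 Y-linked genes summed to 153 to 334 CPM. Both kinds were present in IgG-IFNa 3 and 4. Between the PBS groups the antibody and the sex-linked transcripts therefore cannot be told apart, and with IFNa they overlap only through those 2 libraries. After IgG, Xist was 258 to 329 CPM with PBS and 23.5 to 215 with IFNa. The Y-linked sum was 0.201 to 0.296 and 1.67 to 321 CPM. The IFNa difference after IgG, and its comparison between antibodies, therefore cannot be fully told apart from these transcripts. UC7-IFNa library 2 stood apart, with a scaling factor of 0.867 against 0.987 to 1.05 elsewhere and 1.14% of its counts from the ribosomal Rn18s against 0.0866 to 0.333%, so results that rest on it are given with and without it.

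Replication transcripts were the more abundant set when levels were set per kilobase of the principal transcript. The median level, taken as the mean of the 4 group means, was 10.2 CPM per kilobase for the replication members, with a range of 1.61 for Cdc6 to 59.2 for Pcna. The median for the mitosis members was 2.26, with a range of 0.453 for Cenpf, a large kinetochore protein, to 12.5 for Birc5, the survivin subunit of the chromosomal passenger complex. Pcna and Mcm6 led with 59.2 and 56.7 CPM per kilobase, and the other MCM genes followed between 18.02 for Mcm3 and 27.9 for Mcm4. The sets overlapped below the MCM genes: Cdc6, the lowest replication member, lay between the mitotic Ccnb1 (1.66) and Tpx2 (1.26), and E2f1 (2.87), Cdc45 (2.91), Ccne2 (3.71), Ccne1 (4.51) and Gins2 (5.69) lay among mitosis members such as Aurkb (3.01) and Ccnb2 (5.76). Summed without length, replication members took 623 to 1046 CPM of a library and mitosis members 112 to 217 CPM, and the ratio of the sums ran from 3.86 in UC7-PBS library 3 to 6.84 in IgG-PBS library 3.

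**Figure D1:**
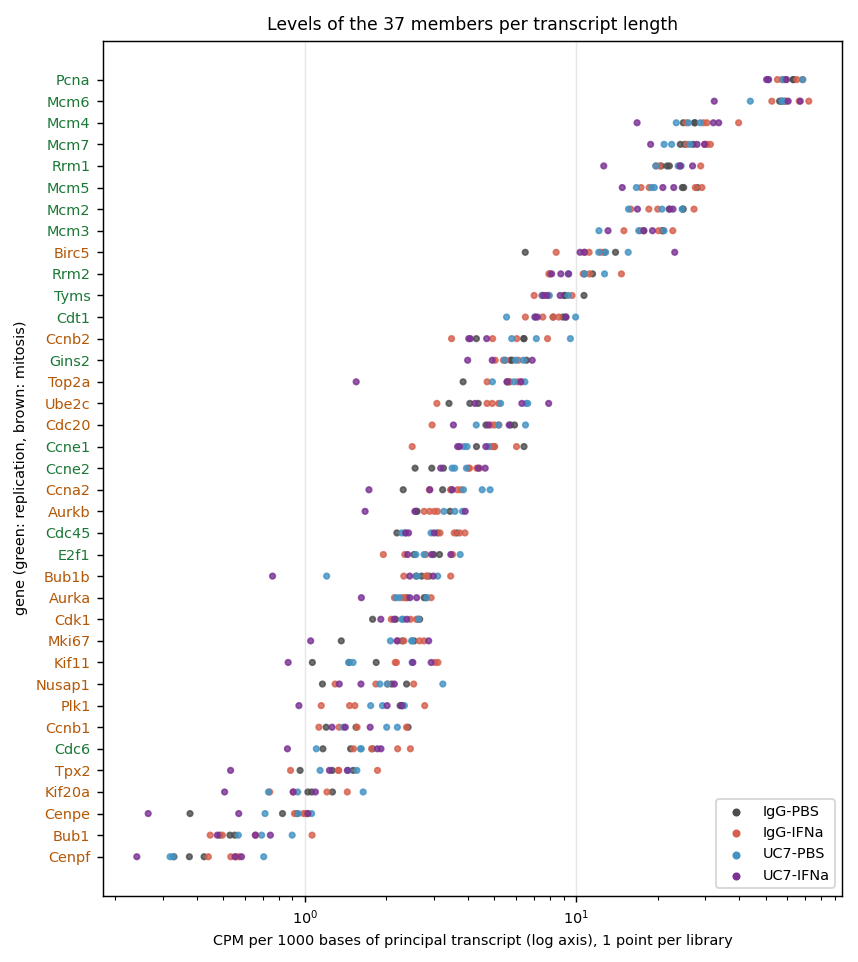
Level of each of the 37 members in CPM per kilobase of principal transcript (log axis), 1 point per library and 1 colour per group. Pcna and Mcm6 lie at the top and Cenpf and Bub1 at the bottom; UC7-IFNa library 2 gives the leftmost point for many genes, such as Top2a and Bub1b.

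Promoter letters also differed in share between the sets, and the stretches of 6 members, picked by hand from both sets, are shown as examples. A promoter window of 250 bases before to 50 after the start (RefSeq, GRCm38.p6) was matched by symbol for 30 members, 14 of replication and 16 of mitosis. None was matched for Ccna2, Aurkb, Kif20a, Tpx2, Mcm4, Gins2 and Ccne2. E2F motifs were searched as TTTCCCGC, TTTGGCGC, TTTCGCGC or TTTGCCGC, the cell cycle homology region (CHR) as TTTGAA or TTTAAA, and the CCAAT box as CCAAT, all on both strands; E2F words on opposite strands may overlap. The 160 bases before the start are printed 5′ to 3′ on the gene's strand, with matched letters in capitals.
Mcm5, chr8:75109349-75109508, plus strand: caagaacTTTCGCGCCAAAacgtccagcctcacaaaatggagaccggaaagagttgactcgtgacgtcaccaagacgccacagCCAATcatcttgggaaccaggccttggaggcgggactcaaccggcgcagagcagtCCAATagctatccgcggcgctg
Mcm6, chr1:128359706-128359865, minus strand: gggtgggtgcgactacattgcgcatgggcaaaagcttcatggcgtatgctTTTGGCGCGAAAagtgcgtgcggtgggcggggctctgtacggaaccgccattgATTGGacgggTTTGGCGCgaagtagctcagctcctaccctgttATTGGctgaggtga
Cdk1, chr10:69352913-69353072, minus strand: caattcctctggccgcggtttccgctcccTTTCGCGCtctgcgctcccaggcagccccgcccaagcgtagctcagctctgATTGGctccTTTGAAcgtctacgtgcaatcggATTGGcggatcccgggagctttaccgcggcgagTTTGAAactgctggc
Top2a, chr11:99024190-99024349, minus strand: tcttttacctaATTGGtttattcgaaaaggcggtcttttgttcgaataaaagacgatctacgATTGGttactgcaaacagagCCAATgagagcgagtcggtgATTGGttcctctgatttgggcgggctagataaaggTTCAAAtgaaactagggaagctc
Kif11, chr19:37376222-37376381, plus strand: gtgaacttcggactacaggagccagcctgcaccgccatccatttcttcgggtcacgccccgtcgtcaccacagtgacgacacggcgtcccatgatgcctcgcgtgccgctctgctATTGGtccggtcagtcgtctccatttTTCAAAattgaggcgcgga
Ube2c, chr2:164769769-164769928, plus strand: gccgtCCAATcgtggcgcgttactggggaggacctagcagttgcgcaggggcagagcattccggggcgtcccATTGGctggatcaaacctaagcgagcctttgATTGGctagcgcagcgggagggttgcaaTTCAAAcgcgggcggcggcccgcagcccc

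Mcm6 held 3 E2F words and no CHR in the printed stretch, and Mcm5 held 2 overlapping E2F words. Top2a held 4 CCAAT boxes with 1 CHR nearer the start, and Ube2c 3 with 1. Each mitosis stretch printed held a CHR, although only 50% of mitosis members had one within 150 bases before the start. Likewise, both replication stretches printed held E2F words, although only 21.4% of replication members had one within those 150 bases. Over the whole windows, an E2F word was present in 6 of 14 replication members (42.9%) and in 1 of 16 mitosis members (6.25%, Cdk1), against 2.26% of 32851 windows of the same length. A CHR was present in 5 of 14 replication members (35.7%) and in 14 of 16 mitosis members (87.5%), against 27.6% of all windows. A CCAAT box was present in 9 of 14 (64.3%) and 14 of 16 (87.5%), against 37.4%. A match describes letters and does not show a bound factor.

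The members with the highest counts in each set show how little the groups were separated. Mcm6 (mm39 chromosome 1, 128259327 to 128287402), a subunit of the replicative helicase, stood at 171, 164 and 166 CPM in IgG-PBS, 194, 210, 153 and 174 in IgG-IFNa, 169, 128 and 167 in UC7-PBS and 176, 94.1 and 195 in UC7-IFNa. The highest library was IgG-IFNa 2 and the lowest UC7-IFNa 2, and all 4 groups overlapped. Mcm4 (chromosome 16, 15441761 to 15455265) followed the same order of libraries at its ends, from 60.3 CPM in UC7-IFNa 2 to 143 in IgG-IFNa 2, with 98.3, 98.4 and 89.2 in IgG-PBS, 106, 91.7 and 109 in the other IgG-IFNa libraries, 103, 84.1 and 93.3 in UC7-PBS and 121 and 115 in the other UC7-IFNa libraries. Pcna (chromosome 2, 132091082 to 132095235) had a narrower range: 96.2, 96.1 and 89.7 CPM in IgG-PBS, 99.0, 87.4, 104 and 83.9 in IgG-IFNa, 77.9, 104 and 88.0 in UC7-PBS, and 76.6, 90.7 and 77.8 in UC7-IFNa. For Pcna, UC7-IFNa library 2 was the highest of its group rather than the lowest. Rrm1 (chromosome 7, 102090902 to 102118979), the large subunit of ribonucleotide reductase, stood at 86.6, 88.3 and 82.4 CPM in IgG-PBS, 96.8, 115, 78.8 and 81.2 in IgG-IFNa, 97.6, 78.7 and 95.1 in UC7-PBS and 96.6, 50.6 and 108 in UC7-IFNa. Mcm7 (chromosome 5, 138162845 to 138170685) stood at 71.8, 80.2 and 74.5 CPM in IgG-PBS, 88.5, 92.7, 75.9 and 90.3 in IgG-IFNa, 66.7, 62.6 and 77.9 in UC7-PBS and 82.8, 55.8 and 88.2 in UC7-IFNa. Mcm5 (chromosome 8, 75836197 to 75855068) stood at 83.4, 84.4 and 94.7 CPM in IgG-PBS, 93.1, 98.5, 62.9 and 58.7 in IgG-IFNa, 64.3, 56.4 and 65.8 in UC7-PBS and 77.5, 50.1 and 70.7 in UC7-IFNa. All 3 IgG-PBS libraries were above all 3 UC7-PBS libraries for Mcm5, while the 4 IgG-IFNa libraries split into a higher and a lower pair.

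Among mitosis members the spread between libraries of a group was wider. Top2a (chromosome 11, 98883769 to 98915016), the topoisomerase that untangles sister chromatids, stood at 29.7, 29.1 and 20.01 CPM in IgG-PBS, 31.8, 32.8, 29.5 and 24.5 in IgG-IFNa, 30.8, 25.7 and 33.8 in UC7-PBS and 32.7, 8.07 and 29.1 in UC7-IFNa. Mki67 (chromosome 7, 135291513 to 135318091), the source of the Ki-67 proliferation antigen, stood at 23.0, 25.4 and 13.7 CPM in IgG-PBS, 22.2, 27.7, 26.7 and 23.3 in IgG-IFNa, 25.0, 20.8 and 24.9 in UC7-PBS and 28.8, 10.6 and 22.01 in UC7-IFNa. For both genes the lowest library was UC7-IFNa 2 and the next lowest IgG-PBS 3. Birc5 (chromosome 11, 117740077 to 117746570) went the other way in UC7-IFNa, with 10.2, 21.9 and 9.80 CPM, against 12.05, 13.2 and 6.15 in IgG-PBS, 10.2, 11.7, 10.6 and 8.0002 in IgG-IFNa and 12.2, 11.5 and 14.7 in UC7-PBS. Cdk1 (chromosome 10, 69170976 to 69188769) varied little, with 9.46, 11.6 and 7.78 CPM in IgG-PBS, 10.7, 11.3, 11.4 and 9.11 in IgG-IFNa, 9.98, 11.5 and 10.1 in UC7-PBS and 9.34, 10.4 and 8.34 in UC7-IFNa. Ccna2 (chromosome 3, 36619014 to 36626300), cyclin A2, which acts in S phase and G2, stood at 10.3, 9.55 and 6.83 CPM in IgG-PBS, 10.8, 11.2, 10.2 and 8.54 in IgG-IFNa, 11.4, 13.4 and 14.3 in UC7-PBS and 10.4, 5.11 and 8.57 in UC7-IFNa. The 3 UC7-PBS libraries held the 3 highest Ccna2 levels of all 13. Kif11 (chromosome 19, 37364851 to 37410308), the motor that pushes spindle poles apart, stood at 7.02, 8.83 and 5.14 CPM in IgG-PBS, 10.5, 14.9, 10.4 and 14.5 in IgG-IFNa, 7.26, 6.99 and 11.98 in UC7-PBS and 12.1, 4.18 and 14.1 in UC7-IFNa. The 4 IgG-IFNa libraries were all above the 3 IgG-PBS libraries for Kif11.

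**Figure D2:**
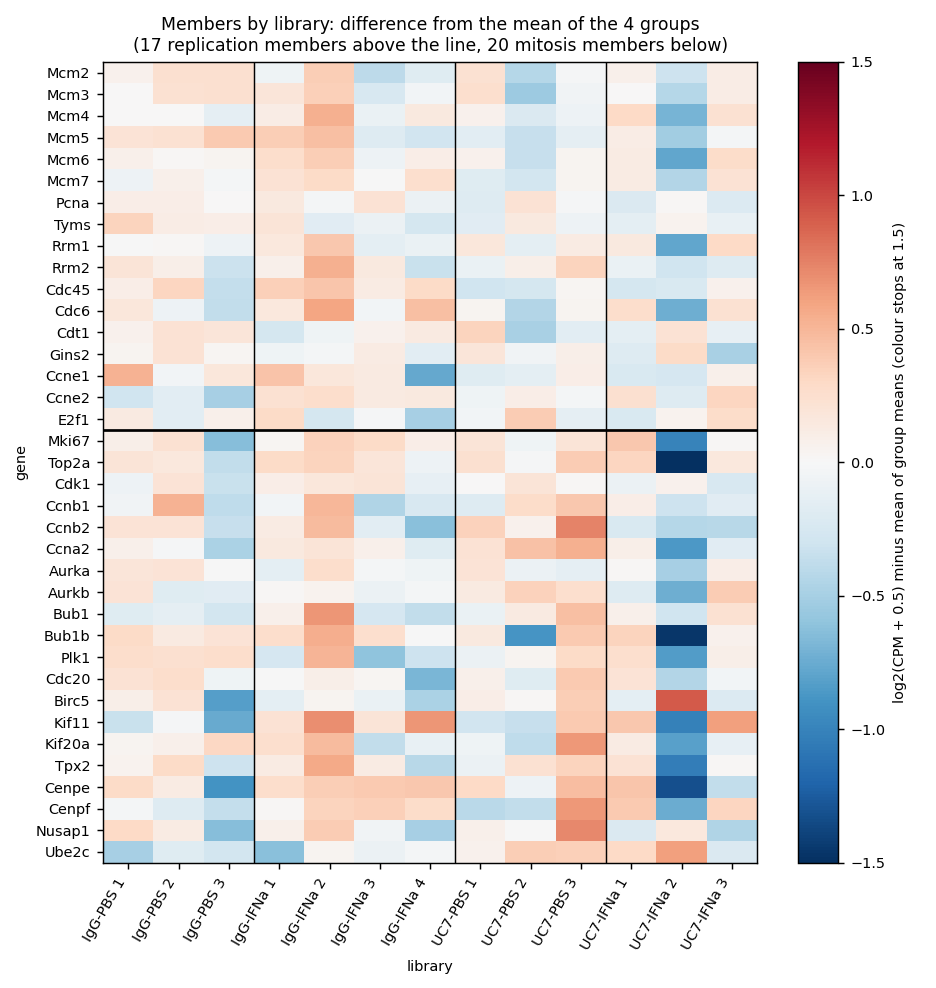
Heat map of the 37 members (rows, replication above the line) in the 13 libraries (columns, by group), as log2(CPM + 0.5) minus the mean of the 4 group means. UC7-IFNa library 2 is blue for most members, with Birc5 and Ube2c red, and IgG-PBS library 3 is blue for many mitosis members.

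UC7-IFNa library 2 was the lowest of all 13 for 6 replication and 12 mitosis members and the highest for Gins2, Birc5 and Ube2c. Against the mean of its group mates on log2(CPM + 0.5), its median was -0.41 over the replication and -0.82 over the mitosis members, and it ran from -1.87 for Top2a to 1.10 for Birc5. The difference followed transcript length. The 13 shortest members (947 to 2489 bases) had a median of -0.16, the 12 in the middle -0.48 and the 12 longest (3589 to 11130 bases) -1.13. Spearman's rho between length and difference was -0.57 over the 37 members and -0.46 over 12854 genes with a mean of at least 1 CPM. These genes share libraries and are not independent, so no p is given. The other 12 libraries, set in the same way against their own mates, had rho from -0.40 (UC7-PBS 2) to 0.43 (UC7-IFNa 1) over the 12854 genes, and the UC7-IFNa values share libraries with each other. The part of transcript length and of the Rn18s share in the members' low levels in this library was not tested.

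**Figure D3:**
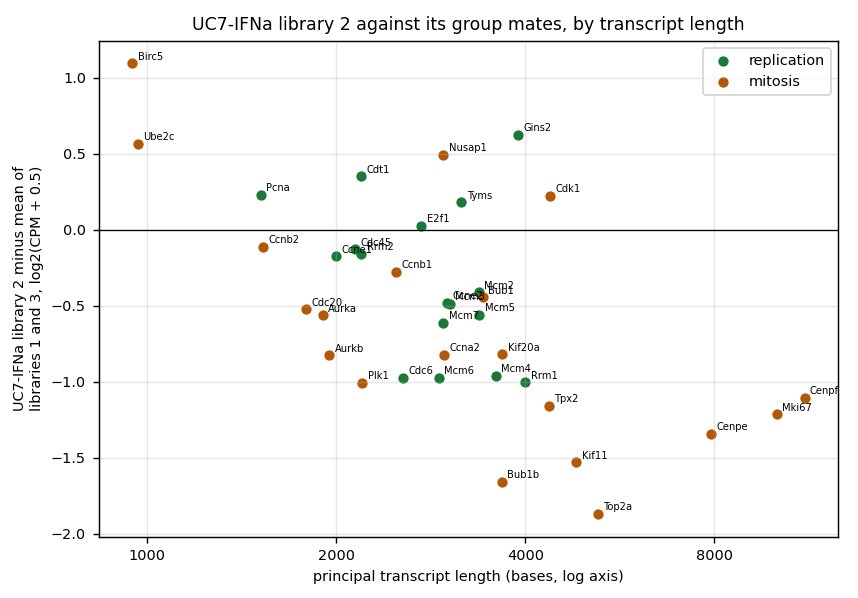
Difference of UC7-IFNa library 2 from the mean of its group mates, log2(CPM + 0.5), against principal transcript length (bases, log axis), 1 point per member. Short Birc5 and Ube2c lie above 0 and long Top2a, Kif11, Cenpe, Mki67 and Cenpf below -1; Cdk1, Gins2 and Nusap1 lie above 0 although longer.

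A score, the mean over members of log2(CPM + 0.5) centred on the mean of the 4 group means, summarised each set by library. Replication scores were 0.10, 0.09 and -0.02 in IgG-PBS, 0.16, 0.25, -0.02 and -0.07 in IgG-IFNa, -0.0045, -0.16 and 0.01 in UC7-PBS and -0.01, -0.30 and 0.06 in UC7-IFNa. Mitosis scores were 0.06, 0.11 and -0.32 in IgG-PBS, 0.04, 0.35, -0.0050 and -0.14 in IgG-IFNa, 0.05, -0.01 and 0.39 in UC7-PBS and 0.14, -0.58 and -0.02 in UC7-IFNa. The within-group SD was 0.13 for replication and 0.27 for mitosis, and every pair of groups overlapped in both scores. Replication minus mitosis was 0.03, -0.03 and 0.30 in IgG-PBS, 0.12, -0.10, -0.02 and 0.07 in IgG-IFNa, -0.05, -0.15 and -0.39 in UC7-PBS and -0.15, 0.29 and 0.08 in UC7-IFNa. On this measure the 3 UC7-PBS libraries lay below the 3 IgG-PBS libraries, by a gap smaller than the spread inside either group. The scores are a description with no test, because the genes were chosen with results of these libraries known.

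**Figure D4:**
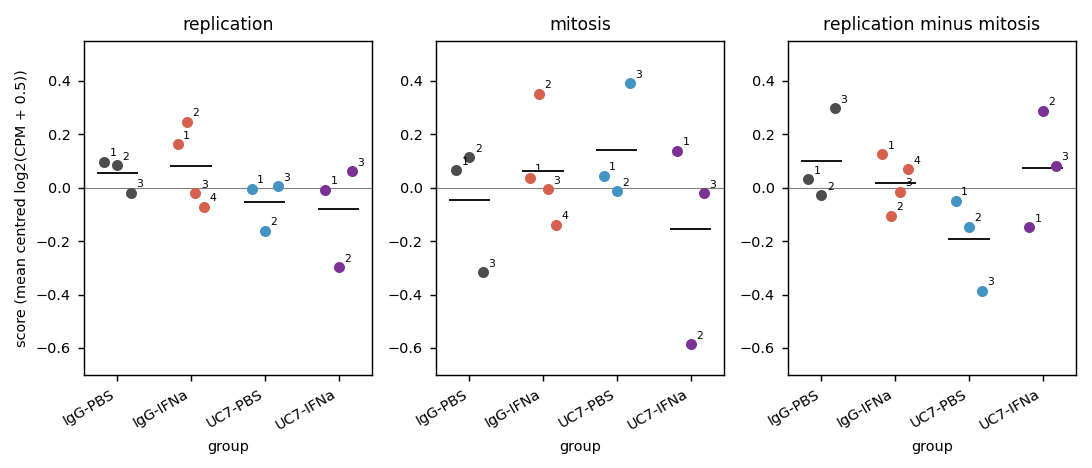
Replication score, mitosis score and their difference (mean centred log2(CPM + 0.5)), 1 numbered point per library and a line at each group mean. The groups overlap in both scores; UC7-IFNa library 2 is lowest in each, and IgG-PBS library 3 is the next lowest for mitosis.

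No member passed the threshold in any comparison. Over the 37 members and 5 contrasts, 0 of 185 tests had an adjusted p under 0.05 by edgeR's quasi-likelihood test, 9 had an unadjusted p under 0.05, and the smallest adjusted p was 0.238, for Ccne2 after IFNa with IgG. DESeq2 called no member either, and no member was called without UC7-IFNa library 2 or under any other setting tried. The leading genes below are therefore given with their values and intervals only. Of the 37 members, 12 overlap another gene of the deposited annotation, among them Ccna2, Kif11, Cdc45, Ccne2, Gins2 and Mcm7. Whether the counting used strand is not given in the sources used here, so reads of overlapping genes cannot be told apart.

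**Figure D5:**
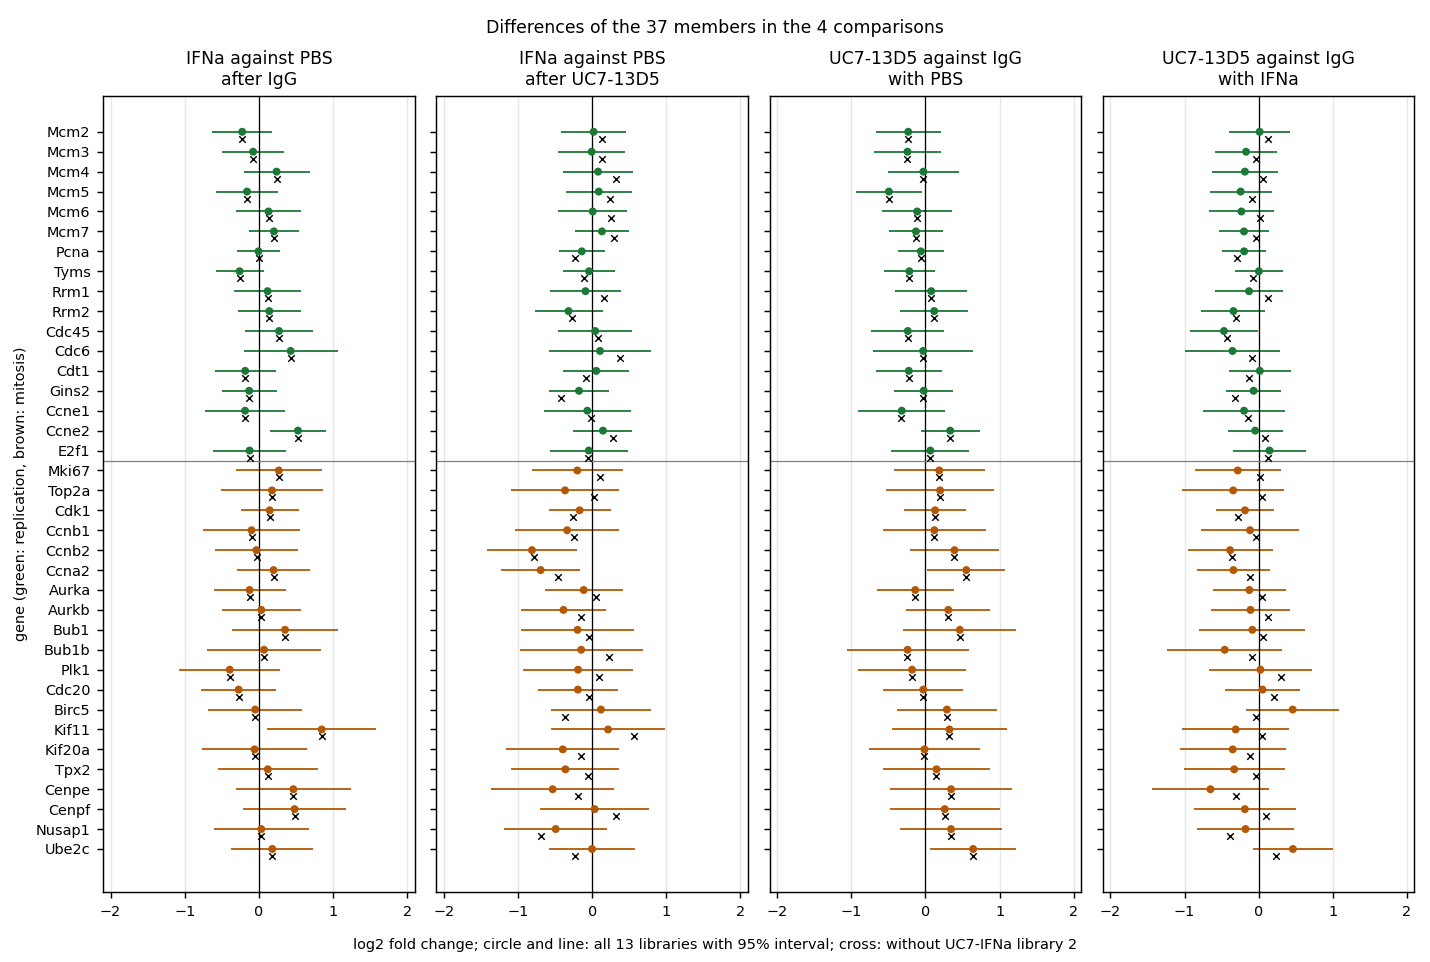
Log2 fold change of each member (replication above the line) in the 4 comparisons between groups, with circles and lines for all 13 libraries and their 95% intervals, and crosses for the fit without UC7-IFNa library 2. Few intervals leave 0, such as those of Ccne2 and Kif11 in the first panel and Ccnb2 and Ccna2 in the next, and crosses lie to the right of circles for most members in the panels that use UC7-IFNa.

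The first comparison set IFNa against PBS in mice given IgG. Sex-linked transcripts also differed between these groups, so IFNa cannot be fully told apart from them here. Of all 15835 genes tested, 131 were called (0.827%), 98 higher and 33 lower with IFNa, and of the 37 members 0 were. At an unadjusted p under 0.05 there were 2 members, against 10.9% of all genes. The median log2 fold change was -0.01 over replication and 0.09 over mitosis members, against -0.01 over all genes, with 8 of 17 and 13 of 20 above 0. The mitosis median was -0.014 without IgG-IFNa library 2 and 0.24 without IgG-PBS library 2. Ccne2 (mm39 chromosome 4, 11191351 to 11204780), cyclin E2, stood at 8.83, 9.75 and 7.66 CPM in IgG-PBS and 12.9, 13.2, 12.1 and 12.2 in IgG-IFNa, with no overlap. Its difference was 0.53 (SE 0.18, edgeR adjusted p = 0.238). Kif11 differed by 0.85 (SE 0.34, 95% interval 0.12 to 1.58, edgeR adjusted p = 0.37). Kif11, Ccne2 and Cenpf (0.48, SE 0.33) were the 3 members whose groups did not overlap, against 14% of all genes. Next by p were Tyms, thymidylate synthase, at -0.26 (SE 0.15), Cdc6 at 0.43 (SE 0.30) and the kinetochore motor Cenpe at 0.46 (SE 0.37). For 31 of the 37 members, and for 10162 of all 15835 genes, the 95% interval lay inside a 2-fold change in either direction.

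With UC7-13D5, the same cytokine gave another order of members, again without a call. Of all genes, 57 were called (0.36%), 53 of them higher, and 2 members had an unadjusted p under 0.05, against 7.59% of all genes. The median was 0.01 over replication and -0.20 over mitosis members, against 0.02 over all genes, and 17 of 20 mitosis members lay below 0. The mitosis median was -0.44 without UC7-IFNa library 1 and the replication median -0.06 without UC7-IFNa library 3. Ccnb2 (chromosome 9, 70314974 to 70328830), cyclin B2, stood at 10.9, 8.87 and 14.6 CPM in UC7-PBS and 7.17, 6.16 and 6.24 in UC7-IFNa, with no overlap. It differed by -0.81 (SE 0.29, 95% interval -1.42 to -0.20, edgeR adjusted p = 0.5), and Ccna2 by -0.69 (SE 0.25). These were the 2 members without overlap, against 12% of all genes. Nusap1, a spindle microtubule binder, was next at -0.49 (SE 0.33), and the leading replication members were Rrm2 at -0.32 (SE 0.22), Pcna at -0.14 (SE 0.15) and Gins2 at -0.18 (SE 0.19). Without UC7-IFNa library 2 the medians were 0.13 and -0.10 against -0.03 over all genes, 110 of 16224 genes were called (0.678%), and 13 of 20 mitosis members lay below 0. In that fit Ccnb2 stood at -0.78, Ccna2 at -0.47, Gins2 at -0.43, Mcm7 at 0.30 and Kif11 at 0.57, and the smallest adjusted p of a member was 0.315.

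Between antibodies with PBS, the medians of the replication and mitosis members lay on opposite sides of 0. Here 1 gene of 15835 was called (0.00632%, and 0.00616% without UC7-IFNa library 2), and it was no member. At an unadjusted p under 0.05 there were 3 members, against 5% of all genes. The median was -0.11 over replication members, 13 of 17 below 0, and 0.23 over mitosis members, 15 of 20 above 0, against -0.01 over all genes. Mcm5 differed by -0.49 (SE 0.21, 95% interval -0.94 to -0.05, edgeR adjusted p = 0.867). Ube2c (chromosome 2, 164611818 to 164620743), the ubiquitin-conjugating enzyme of the anaphase-promoting complex, stood at 3.29, 4.21 and 3.93 CPM in IgG-PBS and 5.10, 6.42 and 6.33 in UC7-PBS. Its difference was 0.64 (SE 0.27, edgeR adjusted p = 0.872), and that of Ccna2 was 0.55 (SE 0.25). Ccne2 (0.33, SE 0.19), Tyms (-0.22, SE 0.16) and Ccnb2 (0.39, SE 0.28) were next, and 5 members did not overlap (Mcm5, Ccne2, Ube2c, Ccna2 and the checkpoint kinase Bub1), against 12.4% of all genes. The mitosis median was 0.33 without IgG-PBS library 2 and 0.04 without IgG-PBS library 3, whose mitosis score was the lowest of its group. With the Y-linked share as a covariate and UC7-IFNa library 2 left out, the replication median was 0.20, the mitosis median 0.54 and Mcm5 0.25, so the replication median had the opposite sign. The Y-linked sum was 0.201 to 0.296 CPM in IgG-PBS and 290 to 325 in UC7-PBS. Inside groups it varied mainly in IgG-IFNa (1.67 to 321 CPM), so the slope of the covariate came mainly from those libraries. That fit cannot separate the antibody from the sex-linked transcripts, and nothing is concluded from the sign.

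Between antibodies with IFNa, most members lay below 0 with all libraries. The medians were -0.19 over replication and -0.19 over mitosis members, against 0.01 over all genes, with 13 of 17 and 16 of 20 below 0. Of all genes 12 were called (0.0758%), and 1 member had an unadjusted p under 0.05, against 7.19% of all genes. Cdc45 (chromosome 16, 18599197 to 18630738), which turns the MCM ring into an active helicase, stood at 7.99, 8.35, 6.75 and 7.62 CPM in IgG-IFNa and 5.04, 5.17 and 6.43 in UC7-IFNa, and was the 1 member without overlap, against 6.78% of all genes. It differed by -0.47 (SE 0.22, edgeR adjusted p = 0.69). Rrm2 (-0.34, SE 0.20), Pcna (-0.20, SE 0.14), Ube2c (0.46, SE 0.26), Cenpe (-0.65, SE 0.37) and Birc5 (0.46, SE 0.30) came next. Without UC7-IFNa library 2 the call count over all genes was 2 (0.0123%), the medians were -0.07 and -0.01, mitosis members split 10 above and 10 below 0, Cenpe stood at -0.31, and Birc5 at -0.03. Without UC7-IFNa library 3 the medians were -0.30 and -0.34. The low mitosis median of this comparison was not present without UC7-IFNa library 2.

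Whether the antibody altered the response to IFNa was tested by the interaction of antibody and IFNa, in which edgeR called 0 of all genes (0%) and DESeq2 called 5, with 1 member at an unadjusted p under 0.05 against 3.17% of all genes. That member was Ccna2, at -0.89 (SE 0.34, 95% interval -1.62 to -0.17), with an edgeR adjusted p of 1. Ccnb2 (-0.78, SE 0.39) and Cenpe (-0.997, SE 0.53) were next among mitosis members, and Rrm2 (-0.46, SE 0.30), Ccne2 (-0.38, SE 0.26) and Tyms (0.22, SE 0.22) led the replication members. The median was -0.07 over replication and -0.43 over mitosis members, against 0.02 over all genes, and 16 of 20 mitosis members lay below 0. Without UC7-IFNa library 2 it was 0.09 and -0.18, again with 16 of 20 mitosis members below 0, and Ccna2 stood at -0.67. The mitosis median was -0.58 without UC7-IFNa library 1. Because sex-linked transcripts differed between PBS and IFNa after IgG, the interaction cannot be fully told apart from them. The interval lay inside a 2-fold change for 4 of 20 mitosis members, 15 of 17 replication members and 7864 of all 15835 genes.

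Other genes of the cell cycle, in 3 lists that share no gene with the 37, gave 1 call in all 5 contrasts. The lists held 51 other replication genes, 55 other mitosis genes and 39 G1 cyclins, kinases and brakes, of which 51, 55 and 36 were tested. Myc, the transcription factor that links growth signals to G1, fell with IFNa after IgG: it stood at 152, 132 and 163 CPM in IgG-PBS and 76.4, 104, 56.7 and 61.9 in IgG-IFNa, a difference of -0.99 on the log2 scale (SE 0.20, edgeR adjusted p = 0.0309), lower in 4 of 4 libraries. The same groups also differed without overlap in the differentiated epithelium and the B and plasma cell sums given above. Their mitochondrial shares of counts did not overlap either (0.866 to 1.73% in IgG-PBS and 0.582 to 0.801% in IgG-IFNa). Nor did Xist (258 to 329 against 23.5 to 215 CPM) or the Y-linked sum (0.201 to 0.296 against 1.67 to 321 CPM). The sum of the gamma delta markers was 45496 to 49755 against 51738 to 63563 CPM. Within IgG-IFNa, Myc was lowest in libraries 3 and 4, which had the highest Y-linked sums of the group. The part of any of these measures in the fall of Myc was not tested. The call was lost without any 1 of 7 libraries (IgG-PBS 1, 2 or 3, IgG-IFNa 1, 3 or 4, or UC7-PBS 3), with an adjusted p of up to 0.164, and without IgG-IFNa libraries 3 and 4 together the value was -0.72 (adjusted p = 0.497). After UC7-13D5, Myc stood at 110, 69.5 and 93.7 CPM with PBS and 48.2, 52.2 and 41.2 with IFNa (-0.95, SE 0.22, edgeR adjusted p = 0.118).

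Without UC7-IFNa library 2, when 430 genes (2.65%) were called for IFNa after IgG, 2 of 55 other mitosis genes rose. Cenpa, the histone H3 variant of centromeres, stood at 132, 172 and 96.9 CPM in IgG-PBS and 198, 219, 320 and 354 in IgG-IFNa (1.03, SE 0.21, edgeR adjusted p = 0.0157). Ndc80, a kinetochore subunit that grips microtubules, stood at 10.2, 12.9 and 7.10 CPM against 16.3, 15.6, 21.7 and 23.2 (0.93, SE 0.21, edgeR adjusted p = 0.02). Cdkn2d, an inhibitor of Cdk4 and Cdk6, fell, from 93.8, 106 and 108 CPM to 71.1, 71.9, 57.0 and 51.0 (-0.71, SE 0.13, edgeR adjusted p = 0.00769). With all 13 libraries their adjusted p values were 0.0712, 0.164 and 0.131. For all 3 genes the 2 libraries farthest from IgG-PBS were IgG-IFNa 3 and 4, which carried Y-linked transcripts, and without those 2 libraries Cenpa stood at 0.64, Ndc80 at 0.66 and Cdkn2d at -0.52, all uncalled. After UC7-13D5 the 3 genes were uncalled too. Cenpa stood at 147, 150 and 164 CPM with PBS and 170, 306 and 218 with IFNa (0.59, SE 0.26). Without UC7-IFNa library 2, Ndc80 was at 0.77 (SE 0.24) and Cdkn2d at -0.55 (SE 0.16). Their groups did not overlap in that fit, like those of 5676 of 16224 genes. With library 2, at 9.18 CPM for Ndc80 and 105 for Cdkn2d, they overlapped.

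In the other contrasts no gene of the 3 lists was called, with all libraries or without UC7-IFNa library 2. Among genes of the lists with the smallest p were Chaf1b, a subunit of the chromatin assembly factor, at -0.50 (SE 0.20) with IFNa after IgG and -0.54 (SE 0.22) after UC7-13D5, and Pold2, a subunit of polymerase delta, at -0.49 (SE 0.21) between antibodies with PBS. Myc was also lower with UC7-13D5 than with IgG, at -0.71 (SE 0.22) with PBS and -0.66 (SE 0.21) with IFNa. Its groups did not overlap in either contrast, against 12.4% and 6.78% of all genes without overlap. Sex-linked transcripts differed between the same PBS groups, and their part in the Myc difference was not tested. Between antibodies with IFNa, Ccnd2, a D-type cyclin, was at 0.60 (SE 0.19) and Smc4, a condensin subunit, at -0.60 (SE 0.20), with 0.35 and -0.38 without UC7-IFNa library 2. In the interaction, Ska3, which couples kinetochores to microtubules, was at -1.14 (SE 0.37). The medians of the other lists lay on the same side of 0 as those of the members between antibodies with PBS, at -0.14 over other replication genes, 40 of 51 below 0, and 0.08 over other mitosis genes, 36 of 55 above 0, against -0.01 over all genes. With all 13 libraries this also held for IFNa after IgG, at -0.05 over other replication and 0.14 over other mitosis genes. It held too between antibodies with IFNa (-0.20 and -0.13) and in the interaction (-0.08 and -0.25). For IFNa after UC7-13D5, other replication genes had a median of -0.13, 36 of 51 below 0, against 0.01 over the replication members. Other mitosis genes, at -0.14, lay on the same side as the mitosis members there. Between antibodies with IFNa, without UC7-IFNa library 2, other mitosis genes had -0.12, 39 of 55 below 0, against -0.01 over the mitosis members.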

How the data were processed

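RNA was sequenced from 13 bulk libraries, made with RNeasy and SMART-Seq HT kits per the labels' protocols. Of tools, Partek, DESeq2 and STAR 2.7.8a are listed in the submitters' processing notes, with mm39 as genome build and no roles. The deposited table holds the authors' estimated counts per gene, unscaled, of which 38.0% were not whole, and they were rounded. The authors' second deposited table, a signal equal to those counts divided by 1 constant per library, was not used. Genes were kept with filterByExpr at a minimum count of 10, leaving 15835. A TMM-scaled quasi-likelihood model with the 4 groups as terms took in all 13 libraries together (edgeR 4.0.16, R 4.3.3), with two-sided tests, Benjamini-Hochberg adjustment over all genes kept and a threshold of 0.05. The fit was tested on simulated data. The standard error (SE) is the log2 fold change divided by the square root of F, and intervals cover 95%. CPM are TMM-scaled. Lengths are of the APPRIS principal transcript in GENCODE M21 (GRCm38), joined by Ensembl identifier for 37 of 37 members; promoters are from RefSeq (GRCm38.p6). Gene positions are those of the deposited table.

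The members and gene lists were chosen with earlier results of these data known. Named genes were the 6 members of each set with the highest mean CPM, the 3 of each set with the smallest p per contrast, and from the other lists those called and up to 3 with the smallest p. Groups came from the titles. Alternatives were RLE scaling, DESeq2 1.42.0, no filter beyond a total of 10, only the 2 groups compared, the replicate number as a block, the Y-linked share as a covariate, each library left out, IgG-IFNa libraries 3 and 4 left out, a pseudocount of 2 in place of 0.5, and 150 promoter bases. No 2 libraries of a group agreed within sampling noise (chi-square per degree of freedom of at least 11.6).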

Additional observations from a re-analysis of the deposited data

Results flagged for a closer look

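Each of the 37 members was tested for a library far from the others in IgG-IFNa, the 1 group of 4 libraries, and 1 was found. Cdc20, the activator of the anaphase-promoting complex, stood at 5.28 CPM in IgG-IFNa library 4 and at 8.70, 9.31 and 8.96 CPM in libraries 1 to 3, so the gap took up 0.849 of the range of the group. Chance flags about 1 in 20 groups, so 1 of 37 is below that rate. Cdc20 overlaps Elovl1 in the deposited annotation, and the strand use of the counting is not given in the sources used here.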

How the results depend on the processing

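No member was called under any alternative in any of the 5 contrasts. The smallest adjusted p values were 0.0686 for Kif11 and 0.0772 for Ccne2 without UC7-IFNa library 2, and 0.0789 for Ccne2 by DESeq2, all for IFNa after IgG. The count over all genes moved more, and the cause was not tested. The Y-linked share was fitted as a covariate only together with leaving out UC7-IFNa library 2, so the fit named the covariate fit here changes both. For IFNa after IgG it was 399 by DESeq2, 21 without IgG-IFNa libraries 3 and 4, and 343 with only the 2 groups compared. After UC7-13D5 it was 137 by DESeq2, 136 in the covariate fit (110 without that library alone) and 22 with only the 2 groups. Between antibodies with PBS it was 69 by DESeq2, 0 with no filter, 5 without IgG-IFNa libraries 3 and 4, and 19 with only the 2 groups. With IFNa it was 119 by DESeq2, 6 without IgG-IFNa libraries 3 and 4, 27 in the covariate fit (2 without that library alone) and 0 with only the 2 groups. For the interaction it was 5 by DESeq2. Leaving out 1 library at a time gave 24 to 430, 29 to 110, 0 to 4, 0 to 52 and 0 to 1 genes in the 5 contrasts, and a replication median of the interaction from -0.11 to 0.088. The extremes were IgG-PBS library 1 and UC7-IFNa library 2 for IFNa after IgG, and UC7-PBS library 1 and UC7-IFNa library 2 after UC7-13D5.

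Same-numbered libraries did not deviate together (2 of 18 pairs over 0.1, from -0.31 to 0.20), so the numbers were not taken to pair them. The replicate block gave 27 genes for IFNa after IgG, 34 after UC7-13D5 and 1 between antibodies with IFNa.

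The replication median for IFNa after IgG was 0.13 without IgG-IFNa libraries 3 and 4 and 0.15 in the covariate fit, and between antibodies with IFNa it was -0.32 and 0.16. In the covariate fit it was 0.16 for IFNa after UC7-13D5 and 0.20 between antibodies with PBS, and the mitosis medians between antibodies were 0.54 with PBS and 0.20 with IFNa. The slope of that fit came mainly from the IgG-IFNa libraries, so its values do not separate the antibody from the sex-linked transcripts. That fit reversed Mcm5 (0.25), Tyms (0.023), Pold1 (0.24) and Pold2 (0.15) between antibodies with PBS, Rrm2 (0.079) between antibodies with IFNa, and Cdkn1a (-0.069) for IFNa after UC7-13D5. Leaving out UC7-IFNa library 2 alone reversed Cdkn1a (-0.049) there and Birc5 (-0.032) between antibodies with IFNa, and leaving out 1 library at a time took them up to 1.31 and 0.65. In a window of 150 bases before the start, a CHR was present in 50% of mitosis and 14.3% of replication members against 14.7% of all windows, and an E2F word in 21.4% of replication and 6.25% of mitosis members against 1.24%. The lowest counts of a member in a library, 28 for Bub1 and 32 for Kif20a, limit the precision of its level there.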
